A study of Mus musculus with 18 samples.

Results

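Clozapine was set against risperidone in HepaCAM-captured astrocytes of the mouse frontal cortex, to ask which astrocyte transcripts differ between animals given these antipsychotic drugs. The members are the libraries labelled as astrocytes from clozapine-treated and from risperidone-treated pools, 2 of each, 4 of the 18 libraries of the series. The series profiled microglia, astrocytes and neurons by bulk RNA sequencing after treatment with clozapine, risperidone or vehicle. Adult mice of the strain B6;D2-Tg(S100B-EGFP)1Wjt/J, which carry a green fluorescent protein under the control of S100b sequences, received 1 intraperitoneal injection a day from postnatal day 60 to 74 and were sacrificed on day 75. The clozapine group received 10 mg/kg clozapine, the risperidone group 1 mg/kg risperidone and the vehicle group vehicle alone, all in the same transgenic background. The doses differ, so the comparison is between these treatments as given. Each library comes from the frontal cortices of 5 animals, pooled before dissociation. The replicate number is the batch in the labels, and 1 clozapine, 1 risperidone and 1 vehicle pool make up each batch. The p-values therefore measure the spread between pools, not between animals.

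Clozapine and risperidone both block dopamine D2 and serotonin 2A receptors, and clozapine binds muscarinic, histamine and adrenergic receptors more broadly. Astrocytes take up glutamate and potassium, supply cholesterol and lactate, secrete factors that act on synapses and vessels, and change their expression in inflammation. Immunopanning takes cells onto antibody-coated dishes in sequence, and the astrocytes were captured last, after depletion of endothelial cells, CD45 capture of microglia, depletion of the oligodendrocyte lineage and Thy1 capture of neurons. Cells missed by an earlier step can therefore reach the astrocyte dish.

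The 6 astrocyte libraries held 4.71 to 10.65 M assigned counts. Levels are given in CPM, each library's counts scaled to a common total, with TMM factors set within the astrocyte libraries. Aqp4, the astrocyte water channel, was measured at 365 and 307 CPM with clozapine, 506 and 256 CPM with risperidone, and 365 and 294 CPM with vehicle, batch 1 first. Slc1a2, the main glutamate transporter of astrocytes, lay between 6164 and 10167 CPM in all 6 libraries. Other cell types were present: the neuronal gene Snap25 stood at 866 and 987 CPM with clozapine, 640 and 297 CPM with risperidone, and 704 and 375 CPM with vehicle. The myelin gene Mbp stood at 14308 and 2128 CPM with clozapine, 28556 and 1573 CPM with risperidone, and 15388 and 1495 CPM with vehicle. Mbp thus separated the batches in every treatment, and risperidone batch 1 was the highest library. The endothelial gene Cldn5 did not exceed 4.55 CPM in any of the 6 libraries. Flt1, another endothelial gene, lay between 24 and 97.1 CPM, and 18 endothelial markers summed to between 214 and 420 CPM. In pooled bulk libraries such as these, fewer cells of a type and less RNA per cell cannot be told apart. Xist, which is transcribed in females, and the Y-linked gene Ddx3y were both found in every astrocyte library, at 175 to 445 CPM and 27.7 to 57.1 CPM.

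Clozapine and risperidone astrocytes differed at 10 genes. Of 31022 genes tested, 6 were higher (0.0193%) and 4 lower (0.0129%) with clozapine at an adjusted p under 0.05 by edgeR's quasi-likelihood test with the batch as a term. Together they are 0.0322% of the genes tested. Of the 10, 9 differed in the same direction in both batches, 6 higher and 3 lower. The higher ones are Clca3a1, Frzb, Pqlc2, Gng4, Angptl4 and the predicted gene Gm42910, and the lower ones are Plaur, Tcirg1 and the predicted gene Gm47518. Lilr4b was also called lower and went opposite ways in the batches. At an unadjusted p under 0.05 there were 677 genes higher (2.18%) and 467 lower (1.51%). Of these, 638 were higher in both batches, 443 were lower in both and 63 were split. The test with the batch term favours genes that agree between batches, so the 9 of 10 above is not a separate replication. Without the batch term no gene was called, and 330 had an unadjusted p under 0.05; DESeq2 with the batch term called 5, of which 3 were among the 10. The count depended on single libraries: it was 662 without clozapine batch 1, 28 without clozapine batch 2, 28 without risperidone batch 1, 51 without risperidone batch 2, 18 without vehicle batch 2 and 7 without vehicle batch 1.

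The batches differed widely. Across all genes tested, 20.2% were higher with clozapine in both batches and 21.4% lower in both, so the remaining majority changed direction between batches. The correlation across genes between the batch 1 and the batch 2 difference was -0.17, and 0.04 over the 12051 genes averaging at least 10 CPM in the clozapine and risperidone libraries. These are correlations across genes, which are not independent replicates. The median log2 difference over all genes was 0.03, with 0.02 in batch 1 and -0.06 in batch 2.

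**Figure D1:**
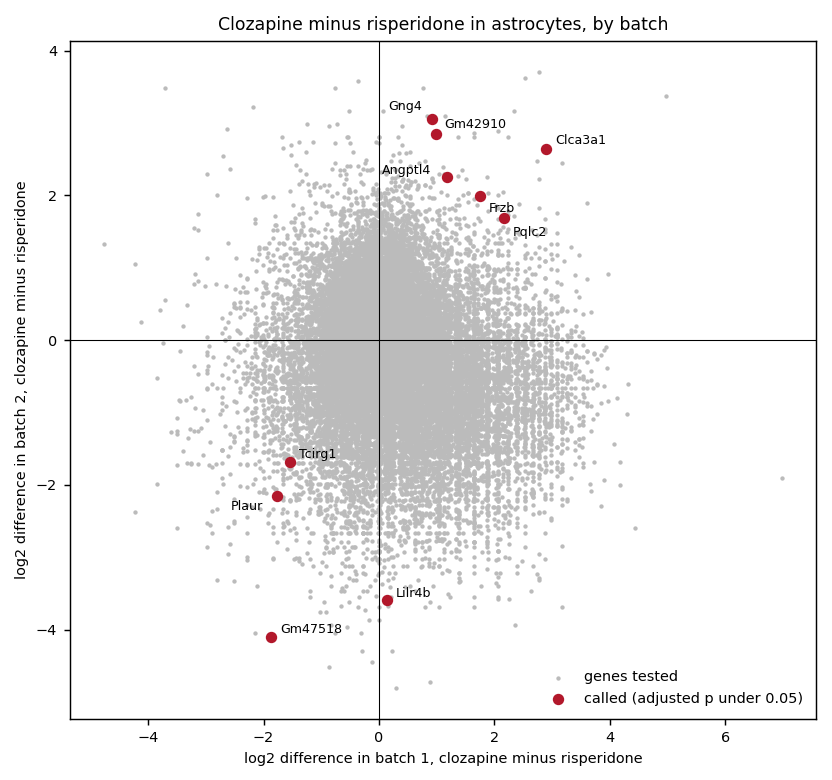
Each point is 1 of the 31022 genes tested, placed by its log2 difference (clozapine minus risperidone) within batch 1 (x axis) and within batch 2 (y axis). The red points are the 10 called genes: 6 lie in the upper right, 3 in the lower left, and Lilr4b lies near 0 in batch 1 and at -3.59 in batch 2.

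The genes called higher with clozapine include those of secreted proteins, a G protein subunit and a lysosomal transporter, beside the predicted gene Gm42910. For Clca3a1, Frzb and Angptl4 the risperidone libraries were the lowest of the 6, and the test of risperidone against vehicle called Clca3a1 alone of these. Clca3a1, of the chloride channel accessory protein family (GRCm39 chr3:144435438-144466738, minus strand), stood at 14.6 and 28.1 CPM with clozapine, 1.72 and 4.25 CPM with risperidone, and 41.7 and 10.9 CPM with vehicle. Both risperidone libraries lay below all others. The antisense gene Gm34866 overlaps Clca3a1, and counting without strand cannot separate their reads. The log2 difference between clozapine and risperidone was 2.89 (SE 0.48; edgeR adjusted p = 0.00465). Frzb, a secreted protein that binds Wnt ligands (chr2:80242314-80277969, minus strand), stood at 22.7 and 35.3 CPM with clozapine, 6.52 and 8.66 CPM with risperidone, and 23.9 and 14.8 CPM with vehicle. The log2 difference was 1.93 (SE 0.36; edgeR adjusted p = 0.0204), and the risperidone libraries were again the lowest of the 6. Angptl4, a secreted inhibitor of lipoprotein lipase (chr17:33992724-34000804, minus strand), stood at 26.6 and 34.2 CPM with clozapine, 11.6 and 6.96 CPM with risperidone, and 24.8 and 15.0 CPM with vehicle. Its log2 difference was 1.76 (SE 0.35; edgeR adjusted p = 0.0404). For these 3 genes the clozapine and risperidone libraries did not overlap. Set against the same vehicle libraries, Clca3a1 differed by -3.16 with risperidone (SE 0.50; edgeR adjusted p = 0.00299) and by -0.28 with clozapine (SE 0.44; edgeR adjusted p = 0.998). Against vehicle, Frzb differed by -1.37 with risperidone (SE 0.37; edgeR adjusted p = 0.817) and Angptl4 by -1.09 (SE 0.35; edgeR adjusted p = 1). With clozapine they differed from vehicle by 0.56 and 0.68, each with an edgeR adjusted p of 0.998.

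Gng4, a gamma subunit of heterotrimeric G proteins (chr13:13958644-14002481, plus strand), stood at 33.2 and 59.6 CPM with clozapine, 17.5 and 6.96 CPM with risperidone, and 20.7 and 16.1 CPM with vehicle. The clozapine libraries were the highest 2 of the 6, and the log2 difference to risperidone was 1.98 (SE 0.38; edgeR adjusted p = 0.0204). Pqlc2, a lysosomal exporter of cationic amino acids (chr4:139021340-139038019, minus strand), stood at 338 and 52.7 CPM with clozapine, 75.1 and 16.1 CPM with risperidone, and 56.1 and 38.2 CPM with vehicle. Within each batch clozapine was higher, by 2.16 and 1.69 on the log2 scale, but clozapine batch 2 lay below risperidone batch 1, so the groups overlap. The fitted difference was 1.98 (SE 0.37; edgeR adjusted p = 0.0204). The aldo-keto reductase gene Akr7a5 starts 36 bases away on the opposite strand, and it stood at 447 and 8.31 CPM with clozapine, 28.6 and 10.9 CPM with risperidone, and 22.3 and 8.20 CPM with vehicle. The genes run away from each other, and the counting used no strand. Reads that reach across the start of either gene into the other thus cannot be assigned to a strand. The predicted gene Gm42910 had 156 and 72.9 CPM with clozapine, 79.0 and 9.85 CPM with risperidone, and 36.1 and 4.26 CPM with vehicle, a log2 difference of 1.97 (SE 0.37; edgeR adjusted p = 0.0204). Its groups overlap too, since clozapine batch 2 lay below risperidone batch 1. Against vehicle it was higher with clozapine by 3.11 (SE 0.39; edgeR adjusted p = 1.67e-05).

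A group of 5 further genes lay just outside the threshold, all at an edgeR adjusted p of 0.0501. Cebpd, a transcription factor of the C/EBP family induced in inflammation, stood at 15.4 and 19.1 CPM with clozapine, 2.71 and 6.62 CPM with risperidone, and 16.2 and 12.3 CPM with vehicle, with a log2 difference of 1.94 (SE 0.41). Spidr, on the opposite strand, overlaps Cebpd and differed by -0.20. Fabp7, the brain fatty acid-binding protein of radial glia and astrocytes, stood at 134 and 159 CPM with clozapine, 59.3 and 39.2 CPM with risperidone, and 161 and 65.6 CPM with vehicle, with a difference of 1.65 (SE 0.35). In both genes the risperidone libraries were the lowest of the 6. Vtn, which encodes vitronectin and is expressed by pericytes in brain, stood at 35.9 and 68.9 CPM with clozapine, 19.0 and 14.4 CPM with risperidone, and 58.1 and 34.9 CPM with vehicle, with a difference of 1.66 (SE 0.35). Sp8 and Ifit3 complete the group and are described further on. Of the 10 genes named as higher, the clozapine libraries lay above both risperidone libraries for 9, against 10.7% of all genes tested. The rule that named these genes favours such a pattern, so nothing is read from that count.

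**Figure D2:**
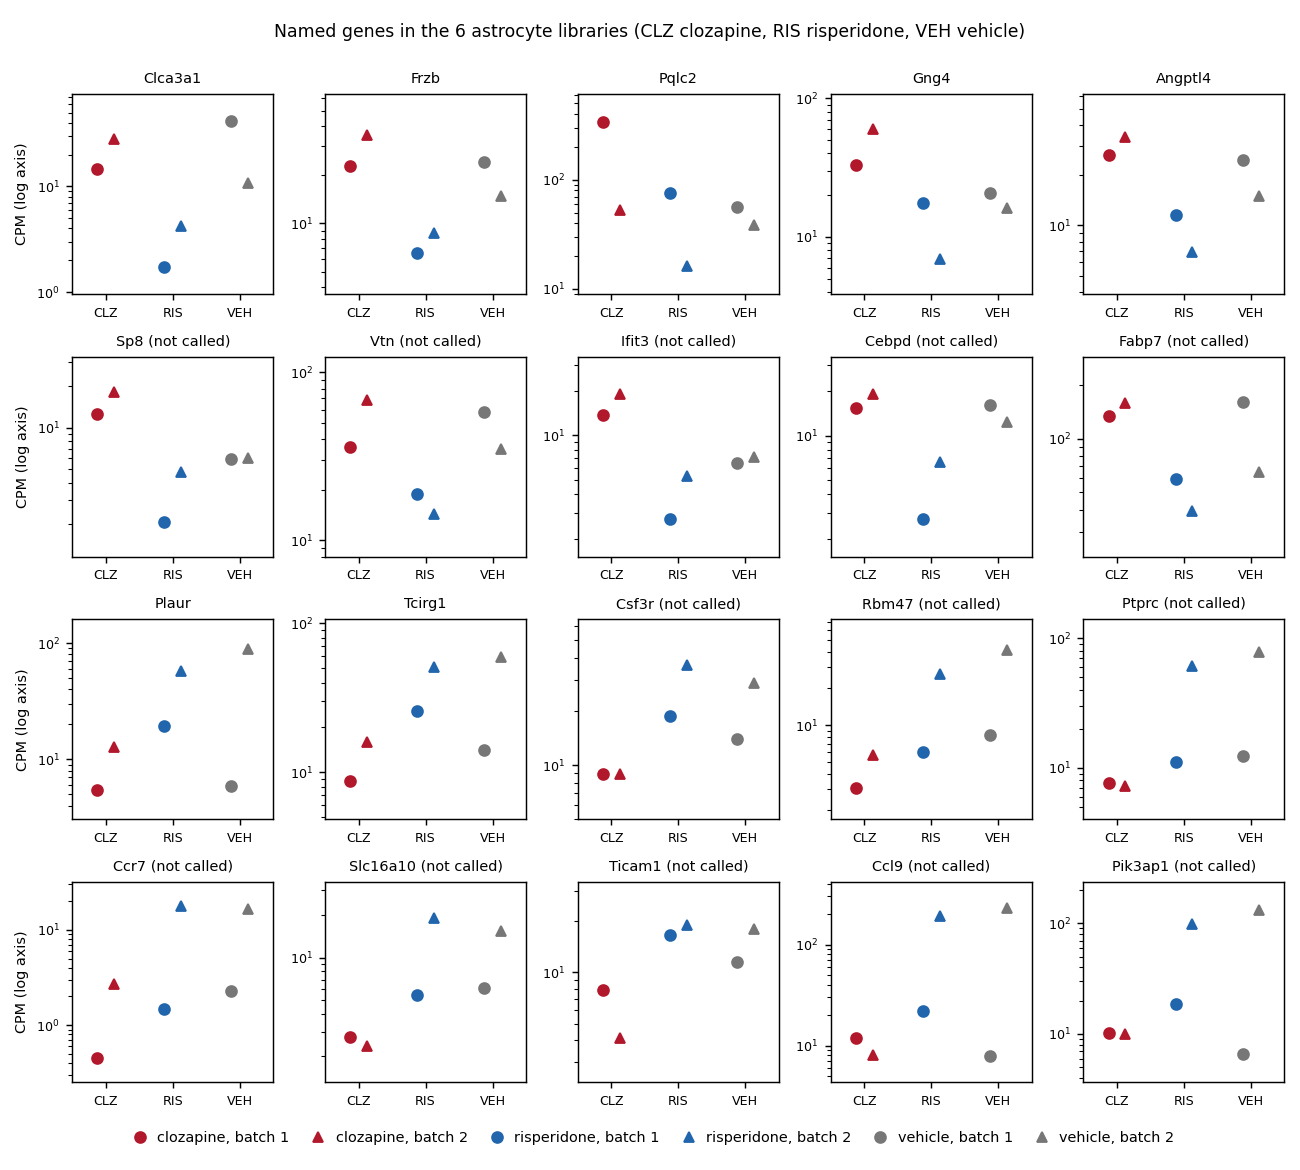
Level of the 10 genes named as higher and the 10 named as lower with clozapine, in CPM on a log axis, in clozapine (red), risperidone (blue) and vehicle (grey) astrocytes. Circles are batch 1 and triangles batch 2. For all 10 lower genes the batch 2 libraries of risperidone and vehicle lie above their batch 1 libraries, a pattern not counted over all genes.

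The genes called lower with clozapine are those of a protease receptor, a proton pump subunit and a myeloid receptor, beside the predicted gene Gm47518. Plaur, the receptor of urokinase (chr7:24161909-24175393, plus strand), stood at 5.48 and 12.7 CPM with clozapine, 19.2 and 57.6 CPM with risperidone, and 5.93 and 89.3 CPM with vehicle. The clozapine libraries lay below both risperidone libraries, while vehicle batch 1 lay among the clozapine libraries and vehicle batch 2 above all others. The log2 difference was -2.04 (SE 0.40; edgeR adjusted p = 0.0357). Tcirg1, a subunit of the vacuolar proton pump (chr19:3946050-3957133, minus strand), stood at 8.67 and 15.9 CPM with clozapine, 25.7 and 51.3 CPM with risperidone, and 14.1 and 59.3 CPM with vehicle, a difference of -1.64 (SE 0.34; edgeR adjusted p = 0.0497). Gm47518 had 1.98 and 1.94 CPM with clozapine, 8.00 and 37.9 CPM with risperidone, and 0.872 and 4.10 CPM with vehicle. Its difference was -3.22 (SE 0.52; edgeR adjusted p = 0.00465), and only here did risperidone stand above both other groups in both batches among the called genes. Against vehicle, Gm47518 was higher with risperidone by 3.12 (SE 0.51; edgeR adjusted p = 0.00299). Lilr4b, a receptor of myeloid cells, had 1.52 and 6.69 CPM with clozapine, 1.35 and 83.9 CPM with risperidone, and 2.79 and 144 CPM with vehicle. Its difference came from batch 2 (-3.59, against 0.14 in batch 1), and it overlaps the gene Gm49339, with which it can share reads.

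The other genes named as lower did not pass the threshold. Csf3r, the receptor of granulocyte colony-stimulating factor, had 8.98 and 8.96 CPM with clozapine, 18.8 and 36.4 CPM with risperidone, and 14.1 and 28.7 CPM with vehicle, a log2 difference of -1.54 (SE 0.35; edgeR adjusted p = 0.108). Ptprc encodes CD45, the antigen by which microglia had been captured before the astrocytes, and had 7.61 and 7.23 CPM with clozapine, 11.1 and 60.5 CPM with risperidone, and 12.4 and 77.5 CPM with vehicle (-1.74, SE 0.42; edgeR adjusted p = 0.177). Ccl9, a chemokine, had 11.9 and 8.09 CPM with clozapine, 21.9 and 192 CPM with risperidone, and 7.85 and 232 CPM with vehicle. The signalling adaptors Pik3ap1 and Ticam1, the RNA-binding protein gene Rbm47, the chemokine receptor gene Ccr7 and the amino acid transporter gene Slc16a10 differed by -1.86, -1.57, -1.67, -2.38 and -2.03. Gng4, Rbm47, Ptprc and Slc16a10 overlap other annotated genes, with which they can share reads. The rule thus named 10 lower genes, Plaur, Tcirg1 and these 8. In all 10 risperidone batch 2 exceeded risperidone batch 1, and vehicle batch 2 exceeded vehicle batch 1. Every one of the 10 had a higher CPM in each microglia library than in any astrocyte library, each fraction being scaled alone. The rule chose these genes on the same astrocyte libraries, and shares over all genes were not counted for these patterns. Nothing is therefore read from the counts.

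Microglial and inflammatory lists lay on the lower side with clozapine, mainly in batch 2. Of 23 microglial markers, 0 were called by edgeR (4 had an unadjusted p under 0.05, all lower), 16 were lower with clozapine in both batches and 0 higher in both, and the median log2 difference was -0.53, with -0.10 in batch 1 and -1.16 in batch 2. Over all genes 20.2% were higher and 21.4% lower in both batches, and the median was 0.03. Their summed level was 1269 and 718 CPM with clozapine, 1337 and 1622 CPM with risperidone, and 745 and 1966 CPM with vehicle. Selplg, the ligand of P-selectin, had 16.0 and 10.7 CPM with clozapine, 29.7 and 31.3 CPM with risperidone, and 12.6 and 32.0 CPM with vehicle (-1.18, SE 0.36; edgeR adjusted p = 0.635). The fractalkine receptor Cx3cr1 had 39.7 and 26.1 CPM with clozapine, 31.3 and 45.5 CPM with risperidone, and 22.0 and 64.5 CPM with vehicle, so the groups overlap. Of 32 inflammatory genes, 0 were called (3 higher and 12 lower at an unadjusted p under 0.05), 18 were lower in both batches and 1 higher in both; the median was -0.65, with -0.11 in batch 1 and -1.39 in batch 2. Their summed level was 719 and 639 CPM with clozapine, 810 and 2021 CPM with risperidone, and 517 and 2848 CPM with vehicle. The vehicle libraries thus held the lowest and the highest sum of the 6. The part of microglial RNA in the genes lower with clozapine was not tested.

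**Figure D3:**
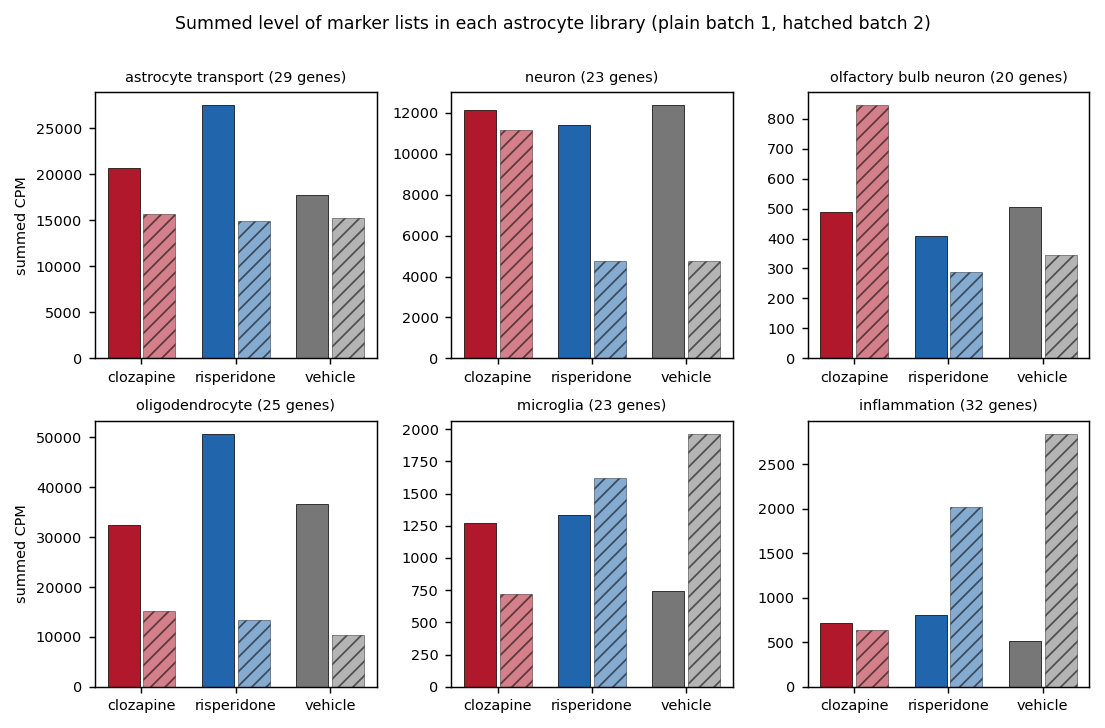
Summed level in CPM (y axis) of marker lists in the 6 astrocyte libraries, by treatment, with plain bars for batch 1 and hatched bars for batch 2. Risperidone and vehicle batch 2 share the highest microglial and inflammatory sums and the lowest neuronal sums, which clozapine batch 2 does not show.

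Single inflammatory genes went different ways. Cxcl1, a neutrophil chemokine that astrocytes can make, was the inflammatory gene higher with clozapine in both batches: it had 9.59 and 17.1 CPM with clozapine, 2.71 and 5.10 CPM with risperidone, and 8.37 and 9.31 CPM with vehicle. Its log2 difference was 1.78 (SE 0.44; edgeR adjusted p = 0.24). The related chemokine gene Cxcl2 had 5.93 and 13.1 CPM with clozapine, 6.89 and 63.4 CPM with risperidone, and 4.36 and 97.5 CPM with vehicle (-1.25, SE 0.44; edgeR adjusted p = 0.982). Icam1, an adhesion molecule, differed by -1.12 (SE 0.39) and Cxcl12, a chemokine of vessels and neurons, by 1.01 (SE 0.36), with batch 1 values of -0.25 and -0.10. Of 39 genes of reactive astrocytes, 0 were called (6 higher and 4 lower at an unadjusted p under 0.05), 12 were higher and 12 lower in both batches, and the median was 0.04. The higher ones include Osmr, the oncostatin M receptor, at 28.8 and 32.8 CPM with clozapine, 11.9 and 13.6 CPM with risperidone, and 21.6 and 19.6 CPM with vehicle (1.27, SE 0.33; edgeR adjusted p = 0.267). Its difference was 1.25 in each batch. Serpina3n, a secreted protease inhibitor, had 19.8 and 57.0 CPM with clozapine, 13.9 and 13.1 CPM with risperidone, and 32.6 and 41.8 CPM with vehicle (1.36, SE 0.35; edgeR adjusted p = 0.261). Cd14 and Cd44 of the same list, which myeloid cells also express, had negative differences. Cd14, a co-receptor for endotoxin, had 11.7 and 11.4 CPM with clozapine, 17.5 and 88.3 CPM with risperidone, and 7.85 and 91.8 CPM with vehicle. Cd44, the hyaluronan receptor, differed by -1.60 (SE 0.43; edgeR adjusted p = 0.356). Gfap, the intermediate filament of reactive astrocytes, had 90.8 and 77.3 CPM with clozapine, 148 and 117 CPM with risperidone, and 79.3 and 154 CPM with vehicle (-0.66, SE 0.34; edgeR adjusted p = 1).

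Interferon-stimulated genes, which cells switch on in response to interferons, had differences of both signs. Ifit3, an antiviral protein with tetratricopeptide repeats, had 13.8 and 18.9 CPM with clozapine, 2.71 and 5.27 CPM with risperidone, and 6.45 and 7.10 CPM with vehicle, a log2 difference of 2.07 (SE 0.44; edgeR adjusted p = 0.0501). Both clozapine libraries lay above the other 4. Ifi27l2a, a small membrane protein of the same response, had 10.2 and 12.5 CPM with clozapine, 2.22 and 2.89 CPM with risperidone, and 3.31 and 3.16 CPM with vehicle (2.15, SE 0.54; edgeR adjusted p = 0.24). Its clozapine libraries likewise lay above the other 4. Ifitm3, which restricts virus entry, differed by 1.02 (SE 0.39) and Ifit1 by 1.15 (SE 0.51), both with an edgeR adjusted p of 1. Oasl1, a relative of the oligoadenylate synthetases, had 4.72 and 6.15 CPM with clozapine, 7.26 and 24.0 CPM with risperidone, and 2.62 and 49.2 CPM with vehicle (-1.26, SE 0.48; edgeR adjusted p = 1). Of 31 genes of the list, 0 were called (6 higher and 2 lower at an unadjusted p under 0.05), 7 were higher and 7 lower in both batches, and the median was -0.02. Ifit3 has a close copy, Ifit3b, on the same chromosome (1.19, SE 0.46), and reads of identical stretches can be split between them.

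The 250 bases upstream of 3 of these genes are shown because the genes belong to 1 pathway and their differences have opposite signs. Capitals mark matches to an interferon response motif, GAAA repeated after any 2 bases, searched on both strands (TTTC repeated after any 2 bases is its reverse), in RefSeq sequence of GRCm38.p6, all on the plus strand, at chr19:34583279-34583528, chr19:34640639-34640888 and chr5:114922990-114923239.
Ifit3: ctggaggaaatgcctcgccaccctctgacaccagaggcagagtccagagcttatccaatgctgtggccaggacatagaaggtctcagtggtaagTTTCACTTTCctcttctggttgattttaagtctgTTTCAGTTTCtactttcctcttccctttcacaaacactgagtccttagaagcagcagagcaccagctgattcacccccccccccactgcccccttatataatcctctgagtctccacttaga
Ifit1: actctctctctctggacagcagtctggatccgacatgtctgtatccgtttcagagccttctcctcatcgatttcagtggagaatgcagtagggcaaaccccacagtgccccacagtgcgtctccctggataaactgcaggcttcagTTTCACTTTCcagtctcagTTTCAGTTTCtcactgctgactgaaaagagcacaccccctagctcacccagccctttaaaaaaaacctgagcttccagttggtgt
Oasl1: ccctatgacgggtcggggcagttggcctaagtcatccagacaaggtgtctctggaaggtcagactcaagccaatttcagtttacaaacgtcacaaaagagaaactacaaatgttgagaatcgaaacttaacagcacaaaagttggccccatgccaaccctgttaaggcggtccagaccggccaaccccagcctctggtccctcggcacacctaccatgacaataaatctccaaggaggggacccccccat
Ifit3 and Ifit1 each hold 2 matches, and these letters are not in this window of Oasl1. Of all 32851 upstream windows, 2.98% hold a match. Of the 22 genes of the list with a window, 11 hold one: 4 of 6 higher in both batches, 2 of 5 lower in both, and 5 of 11 that changed direction. A match is a description of sequence and does not show binding.

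Neuronal lists lay on the higher side with clozapine, and most of them more so in batch 2. Of 23 general neuronal markers 0 were called (11 higher and 0 lower at an unadjusted p under 0.05), 16 were higher in both batches and 0 lower in both, against 20.2% and 21.4% of all genes; the median was 0.68, with 0.19 in batch 1 and 1.24 in batch 2. Their summed level was 12137 and 11176 CPM with clozapine, 11421 and 4754 CPM with risperidone, and 12379 and 4776 CPM with vehicle. The batch 2 libraries of risperidone and vehicle were the low ones, the same libraries that were high in microglial genes. Stmn2, a tubulin-binding protein of axons, had 55.5 and 55.8 CPM with clozapine, 36.4 and 18.9 CPM with risperidone, and 45.2 and 28.6 CPM with vehicle (1.09, SE 0.32; edgeR adjusted p = 0.543). The calcium sensor gene Vsnl1 differed by 1.10 (SE 0.34) and Snap25, a protein of synaptic vesicle fusion, by 1.12 (SE 0.41). Markers of glutamatergic neurons had a median of 0.39 and those of GABAergic neurons 0.58; 11 of 20 and 13 of 23 were higher in both batches. No member of either list was called, and 6 and 9 had an unadjusted p under 0.05. The 18 markers of striatal projection neurons had a median of 0.12, with 0.31 in batch 1 and 0.16 in batch 2. Of these, 3 were higher and 0 lower in both batches, and 15 were split.

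Gng4 and Sp8 belong to a narrower group of neuronal genes. Sp8, a zinc finger transcription factor of olfactory bulb interneurons and their precursors, had 12.5 and 18.2 CPM with clozapine, 2.09 and 4.76 CPM with risperidone, and 5.93 and 6.00 CPM with vehicle (2.21, SE 0.46; edgeR adjusted p = 0.0501). Calb2, which encodes the calcium buffer calretinin, had 13.8 and 31.3 CPM with clozapine, 4.80 and 9.51 CPM with risperidone, and 10.6 and 15.5 CPM with vehicle (1.63, SE 0.37; edgeR adjusted p = 0.0959). Pcp4l1 had 50.2 and 126 CPM with clozapine, 39.3 and 12.9 CPM with risperidone, and 49.0 and 21.8 CPM with vehicle (1.96, SE 0.42, edgeR adjusted p = 0.0581). Npy, a neuropeptide, differed by 1.48 (SE 0.34, edgeR adjusted p = 0.122) and Gad1, which makes GABA, by 1.17 (SE 0.34, edgeR adjusted p = 0.491). In the other fractions Npy differed by 0.10 in microglia (SE 0.31) and -0.59 in neurons (SE 0.36). Gad1 differed there by 1.19 (SE 0.26) and 0.77 (SE 0.25). A list of 20 markers of olfactory bulb neurons, which holds Gng4, Sp8, Calb2 and Pcp4l1, was drawn up after these values had been seen and is given as a description. Its median was 0.98, with 0.46 in batch 1 and 1.39 in batch 2. In both batches 14 members were higher and 0 lower, and 6 were split. Its summed level was 488 and 845 CPM with clozapine, 408 and 288 CPM with risperidone, and 506 and 344 CPM with vehicle. Clozapine batch 2 was the highest library for 19 of the 20, against 12.3% of all genes. The same pool was the highest for 17 of the 20 in the microglia fraction and 18 of the 20 in the neuron fraction, against 17.7% and 15.3% of all genes there. The members were chosen with these values known, so nothing is read from these counts. Calb2, for example, stood in the neuron fraction at 14.8 and 59.8 CPM with clozapine, 6.93 and 7.18 CPM with risperidone, and 17.4 and 21.9 CPM with vehicle. Whether the dissected tissue differed between pools was not tested.

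Endothelial markers lay on the same side as the neuronal ones. Of 18 endothelial markers 0 were called (4 at an unadjusted p under 0.05, all higher), 9 were higher in both batches and 2 lower in both, with a median of 0.41 (0.11 in batch 1 and 0.63 in batch 2). Abcb1a, the drug efflux pump of the blood-brain barrier, had 19.2 and 29.0 CPM with clozapine, 12.8 and 8.32 CPM with risperidone, and 19.9 and 12.6 CPM with vehicle (1.22, SE 0.36; edgeR adjusted p = 0.543). Of 20 markers of mural cells and fibroblasts, which include Vtn and the pericyte gene Rgs5, 0 were called (2 at an unadjusted p under 0.05, both higher), 5 were higher and 3 lower in both batches, and 12 were split. Their median was 0.08, with 0.22 in batch 1 and -0.03 in batch 2. Rgs5 had 60.4 and 66.9 CPM with clozapine, 47.9 and 9.34 CPM with risperidone, and 37.3 and 19.9 CPM with vehicle (1.5, SE 0.38; edgeR adjusted p = 0.241). Flt1, a receptor of vascular endothelial growth factor, differed by 0.02 in batch 1 and 2.01 in batch 2. Cldn5 went the other way, by -0.48 in batch 1 and -0.04 in batch 2.

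No channel, transporter or identity gene of astrocytes was called by edgeR, and among secreted factors Angptl4 was. Of 29 channels and transporters 0 were called, 0 had an unadjusted p under 0.05, 24 changed direction between batches, and the median was -0.40 in batch 1 and 0.17 in batch 2. Aqp4 differed by -0.12 (SE 0.36) and Slc1a2 by -0.15 (SE 0.53), both with an edgeR adjusted p of 1. Of 40 identity and metabolic genes 0 were called by edgeR (2 had an unadjusted p under 0.05), 1 was called by DESeq2 (Fabp7), 5 were higher and 17 lower in both batches, 18 were split, and the median was -0.17. Over all genes tested 41.6% differed the same way in both batches. Cbs, which makes cystathionine and hydrogen sulfide, had 68.0 and 42.3 CPM with clozapine, 106 and 65.1 CPM with risperidone, and 56.7 and 61.7 CPM with vehicle (-0.64, SE 0.32; edgeR adjusted p = 1). Among 32 secreted factors of astrocytes 1 was called, Angptl4, 17 were split between batches, and the median was 0.01. Thbs2, a thrombospondin that promotes synapse formation, had 21.2 and 36.8 CPM with clozapine, 5.78 and 13.6 CPM with risperidone, and 31.0 and 19.1 CPM with vehicle (1.61, SE 0.37; edgeR adjusted p = 0.108). Its relative Thbs4 had 8.52 and 4.32 CPM with clozapine, 11.6 and 16.5 CPM with risperidone, and 10.1 and 23 CPM with vehicle (-1.09, SE 0.41; edgeR adjusted p = 1). Both thrombospondin genes kept their direction in both batches and their groups did not overlap. Over all genes tested, the clozapine libraries lay above both risperidone libraries for 10.7% and below both for 11.2%.

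Lists of sterol, energy and organelle genes held no called gene, and at most 3 of a list had an unadjusted p under 0.05 in 1 direction. Genes of sterol synthesis had a median of -0.09 (-0.34 in batch 1 and 0.10 in batch 2), with Dhcr7, which makes cholesterol from its last precursor, at 40.0 and 37.1 CPM with clozapine, 68.3 and 57.9 CPM with risperidone, and 39.9 and 48.1 CPM with vehicle (-0.71, SE 0.31; edgeR adjusted p = 1). Genes of cholesterol export had medians of -0.24 and -0.20 in the batches, and 9 of 18 were lower in both and 1 higher in both. Nr1h3, the liver X receptor alpha, differed by -1.09 (SE 0.54; edgeR adjusted p = 1). Of 28 lysosomal genes 17 were lower and 5 higher in both batches, with a median of -0.19. The called genes Pqlc2 and Tcirg1, a lysosomal exporter and a proton pump subunit, are not on this list. The 40 genes of oxidative phosphorylation were all higher with clozapine in batch 2, and 25 of them were lower in batch 1; the medians were 0.57 and -0.08. Ribosomal protein genes turned in the same way, with a median of 0.35 in batch 2 and -0.35 in batch 1. Of the heat shock genes, Hspb1 differed by -1.23 (SE 0.48) and Hspb8 by 1.43 (SE 0.59), both with an edgeR adjusted p of 1. Over the 41 lists of cell types and functions drawn up for this comparison, the medians ran from -0.65 to 0.68, and 1 list held a gene called by edgeR. DESeq2 called 1 gene of these lists, Fabp7.

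**Figure D4:**
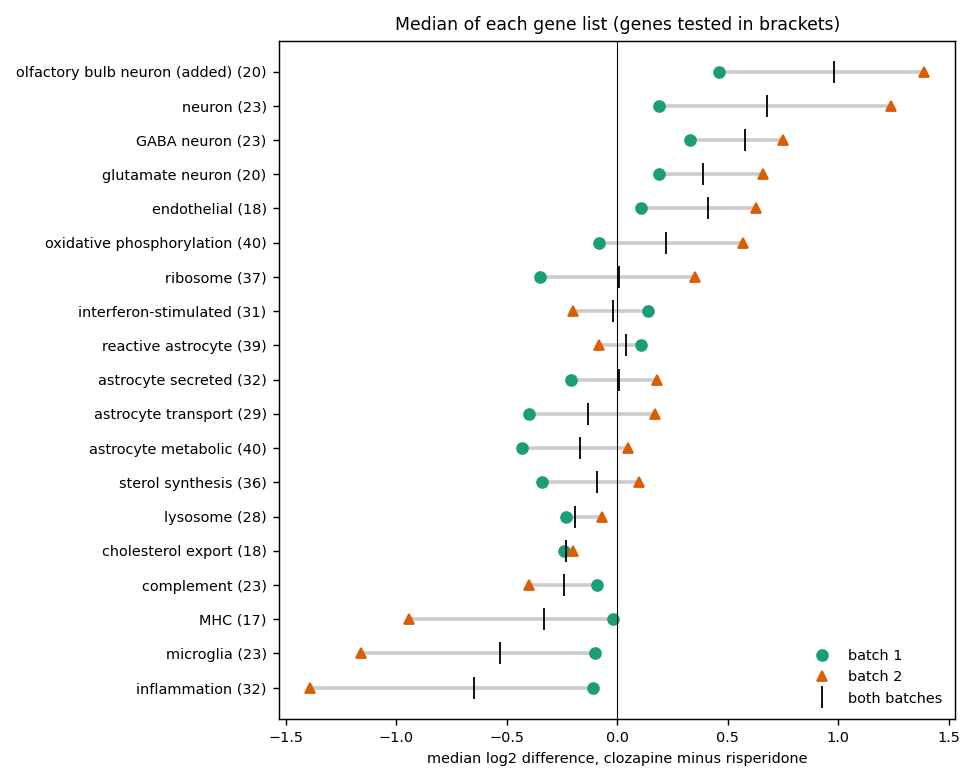
Median log2 difference (clozapine minus risperidone) of gene lists in astrocytes within batch 1 (circles), within batch 2 (triangles) and in the fit of both batches (bars), with the number of genes tested in brackets. Neuronal, endothelial, microglial and inflammatory lists lie farther from 0 in batch 2, and the lists of astrocyte transport and metabolism lie on opposite sides of 0 in the batches.

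None of the receptors these drugs bind differed past the threshold. Of 37 dopamine, serotonin, muscarinic, adrenergic and histamine receptor genes tested 0 were called by edgeR, 0 were called by DESeq2, and 3 had an unadjusted p under 0.05. Their log2 differences ran from -0.94 to 1.21 with a median of 0.28, and 13 were higher in both batches, 5 lower in both and 19 split. Over all genes tested 0.0322% were called, 20.2% were higher in both batches and 21.4% lower in both. With so small a share called, 0 calls among 37 genes does not set the receptors apart. Drd2 had 7.91 and 5.50 CPM with clozapine, 2.09 and 6.29 CPM with risperidone, and 5.06 and 8.68 CPM with vehicle (0.84, SE 0.55; edgeR adjusted p = 1). Htr2a had 14.6 and 9.17 CPM with clozapine, 6.4 and 9.34 CPM with risperidone, and 12.2 and 13.3 CPM with vehicle (0.59, SE 0.40; edgeR adjusted p = 1). For Drd2 and Htr2a the clozapine and risperidone libraries overlap. Htr6 had 6.70 and 9.07 CPM with clozapine, 16.5 and 12.9 CPM with risperidone, and 5.58 and 10.7 CPM with vehicle (-0.94, SE 0.41; edgeR adjusted p = 1). The muscarinic receptor gene Chrm2 had 14.8 and 28.5 CPM with clozapine, 10.5 and 12.7 CPM with risperidone, and 13.4 and 14.7 CPM with vehicle (0.85, SE 0.35; edgeR adjusted p = 1). The clozapine and risperidone libraries did not overlap for Htr6 and Chrm2, the first lower and the second higher with clozapine. Over all genes tested, both clozapine libraries lay below both risperidone libraries for 11.2% and above them for 10.7%.

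Whether these differences were particular to astrocytes was asked in the microglia and neuron fractions of the same pools. The test of the difference between fractions, with the pool as a block, called 0 of 37310 genes for microglia and 0 for neurons (0% in each; edgeR), with 229 and 817 genes at an unadjusted p under 0.05; DESeq2 also called 0 in each. No gene can thus be said to respond in astrocytes alone. With single astrocyte libraries left out, the count for microglia was 5 without risperidone batch 2, and that for neurons was 235 without risperidone batch 2, 4 without vehicle batch 1 and 1 without risperidone batch 1. Predicted genes, unnamed genes, pseudogenes and genes not tested in the astrocyte fit were skipped in naming. Of the rest, the genes of smallest p were Rimbp3, Clca3a1 and Cebpd against microglia. Clca3a1 differed by 0.02 in microglia (SE 0.76), where it had 0.835 and 4.08 CPM with clozapine and 2.15 and 2.38 CPM with risperidone, and the difference between fractions was 2.86 (SE 0.90; edgeR adjusted p = 1). Rimbp3 differed by -0.78 in astrocytes and 1.22 in microglia (SE 0.42 and 0.41). Against neurons, with the same genes skipped, the smallest p values belonged to Cebpd, Accsl and Zfp663. Cebpd had 1.57 and 0.721 CPM with clozapine and 4.03 and 2.51 CPM with risperidone in neurons, a difference of -1.54 there (SE 0.64) and of 3.45 between fractions (SE 0.81; edgeR adjusted p = 1). Accsl and Zfp663 had 0 counts in both clozapine neuron libraries and at most 2.77 CPM in the risperidone ones, so no fold is given.

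The differences of the named genes varied across the fractions, and no grouping of these genes was tested. Gng4 differed by 1.98 in astrocytes, 1.27 in microglia (SE 0.36; edgeR adjusted p = 0.193) and 1.40 in neurons (SE 0.27; edgeR adjusted p = 0.534). Sp8 differed by 2.21 in astrocytes, 0.75 in microglia (SE 0.52) and 2.30 in neurons (SE 0.47). Pqlc2 differed by 0.81 in microglia (SE 0.33) and 1.28 in neurons (SE 0.90), and Fabp7 by 1.07 (SE 0.37) and 0.41 (SE 0.28). Ifit3 differed by 0.86 (SE 0.41) and 0.58 (SE 0.62), and Clca3a1 by 0.02 (SE 0.76) and 0.49 (SE 1.34). The estimates of these genes were above 0 in all fractions, as those of Gng4 were. For Clca3a1 in microglia and neurons, and for Ifit3 in neurons, the estimate was smaller than its SE. Frzb differed by 1.93 in astrocytes, 0.27 in microglia (SE 0.40) and -0.17 in neurons (SE 0.30). Angptl4 differed by 1.76 in astrocytes, 0.05 in microglia (SE 0.41) and -0.41 in neurons (SE 0.62). In both genes the microglia and neuron estimates were smaller in size than their SE. Vtn differed by 0.67 in microglia (SE 0.32) and -0.29 in neurons (SE 0.39). Cebpd was below 0 in both, at -0.50 in microglia (SE 0.38) and -1.54 in neurons (SE 0.64). The level of Pqlc2 varied widely between single neuron libraries. It was 382 and 64.5 CPM with clozapine, 310 and 20.4 CPM with risperidone, and 7014 and 24 CPM with vehicle, batch 1 first. The 10 genes named as lower differed by -0.29 to 0.26 in microglia, where they stood at 41.0 to 1221 CPM. In the neuron fraction vehicle batch 2 was the highest library for all 10, and the share over all genes was not counted. Plaur, for example, had 7.56 and 1.20 CPM with clozapine, 5.54 and 21.9 CPM with risperidone, and 3.44 and 103 CPM with vehicle in neurons, and 406 and 397 CPM with clozapine, 483 and 371 CPM with risperidone, and 383 and 367 CPM with vehicle in microglia. Vehicle batch 2 was thus the highest library for Plaur in the astrocyte and neuron fractions and the lowest in the microglia fraction.

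**Figure D5:**
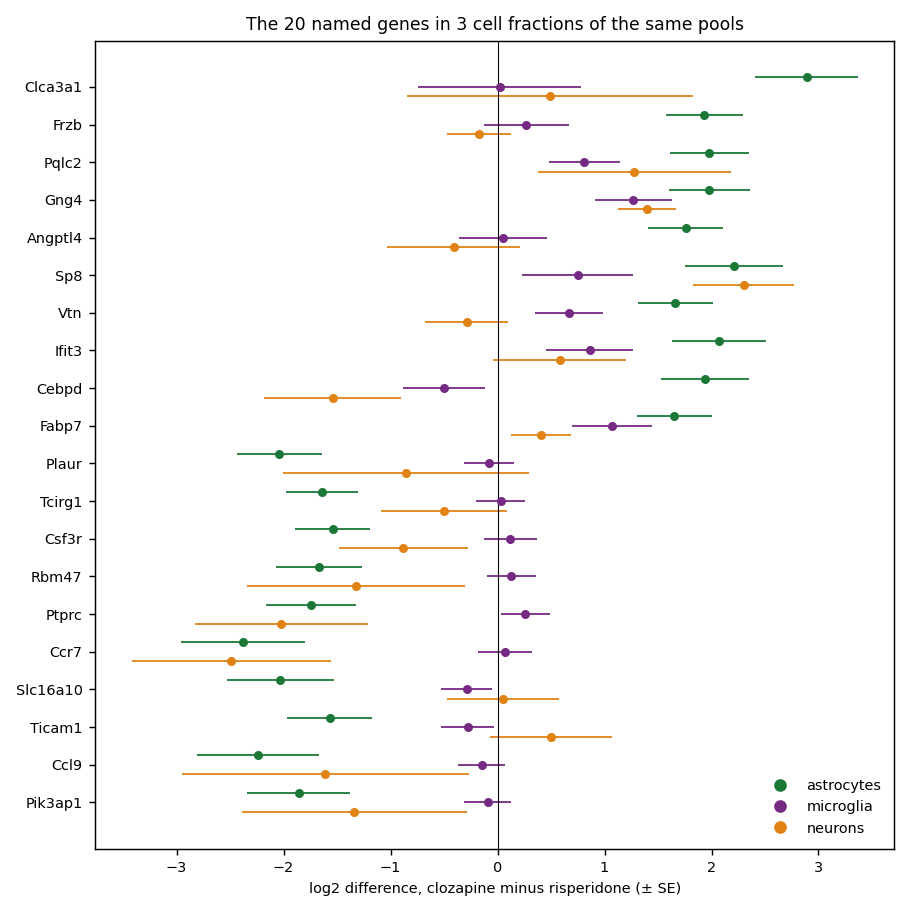
Log2 difference (clozapine minus risperidone, x axis) with its standard error for the 10 genes named as higher (top) and the 10 named as lower (bottom) in astrocytes (green), microglia (purple) and neurons (orange) of the same pools. The lower genes lie between -0.29 and 0.26 in microglia. Gng4, Sp8, Pqlc2, Fabp7 and Ifit3 lie above 0 in all fractions. Clca3a1 does too, but lies at 0.02 in microglia with a standard error of 0.76. Frzb, Angptl4, Vtn and Cebpd lie below 0 in neurons, and Cebpd also in microglia.

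Each drug was also set against vehicle, and these comparisons share the vehicle libraries. Clozapine differed from vehicle at 4 genes, 0.0129% of those tested (edgeR), and risperidone also at 4, 0.0129%. Those of clozapine were Gm42910, Lilr4b, Rbm47 and the processed pseudogene AC113540.1; those of risperidone were Gm47518, Clca3a1, the noncoding RNA Rn7s6 and a gene without a name. Fabp7 differed from vehicle by 0.51 with clozapine (SE 0.35) and -1.14 with risperidone (SE 0.35), and Cebpd by 0.24 (SE 0.38) and -1.70 (SE 0.42). Neither passed the threshold against vehicle with either drug. Gng4 differed from vehicle by 1.38 with clozapine (SE 0.36) and -0.60 with risperidone (SE 0.37), Plaur by -1.80 (SE 0.42) and 0.24 (SE 0.38), and Tcirg1 by -1.38 (SE 0.34) and 0.26 (SE 0.33). None of these was called against vehicle either.

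The calls held unevenly when libraries were left out. Without clozapine batch 2, 9 of the 10 genes were no longer called, Pqlc2 being the exception (2.52), and Clca3a1 differed by 1.92, Frzb by 1.5, Gng4 by 1.14, Angptl4 by 1.22, Gm42910 by 0.98, Plaur by -1.31, Tcirg1 by -1.31, Gm47518 by -1.99 and Lilr4b by 0.07. Without risperidone batch 2 the calls of Pqlc2 (1.75), Gm42910 (1.47), Gng4 (1.25), Angptl4 (1.5), Gm47518 (-2.51) and Lilr4b (-1.39) were lost. Without risperidone batch 1 those of Frzb (1.77), Plaur (-1.47) and Tcirg1 (-1.36) were lost. Leaving out vehicle batch 1 ended the calls of Pqlc2 (1.96), Gm42910 (1.90), Angptl4 (1.74), Tcirg1 (-1.62) and Lilr4b (-2.45), and leaving out vehicle batch 2 those of Pqlc2 (1.98), Gm42910 (1.91) and Tcirg1 (-1.60). The direction of the other 9 genes was the same in each of these fits, with Lilr4b the exception. Without clozapine batch 1 all 10 genes remained called.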

How the data were processed

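For every library the authors deposited raw gene counts. These were made, per the file headers, by featureCounts v2.0.8 on GRCm39 exons summed by gene, with reads allowed in several overlapping genes, strand ignored and mates counted singly. FastQC served for quality control, per the submitters' processing notes, and no aligner is named in the sources used. Per the labels' protocols, libraries came from 20 ng of total RNA with removal of ribosomal RNA. Gene names came from GENCODE vM21 by identifier (52029 of 56953); 37 features of the mitochondrial chromosome held no counts. The labels give both sexes in 1 place and males in another.

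The 6 astrocyte libraries (4.71 to 10.65 M counts) were fitted together with edgeR 4.0.16 in R 4.3.3: filterByExpr, TMM scaling, the batch as a term (2 residual degrees of freedom), quasi-likelihood test, Benjamini-Hochberg adjustment over all genes tested, called under 0.05. SE was taken as the size of the log2 difference over the root of its F statistic. Within-batch differences use log2 CPM with a prior count of 2. The labels state that a replicate number marks a batch; across genes, the batch 1 minus batch 2 difference correlated at 0.27 between clozapine and risperidone, 0.20 between clozapine and vehicle and 0.53 between risperidone and vehicle. Other fractions were fitted alone, and differences between fractions over all 18 libraries with the pool as a block. Scripts were tested on simulated data.

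Genes were named by a rule: called genes that differ the same way in both batches, filled to 10 per direction by smallest p with a mean of at least 5 CPM over the 4 libraries and an absolute log2 difference of at least 0.5, skipping predicted genes in naming only, and up to 4 members of each list by smallest p, of which part are printed. Some genes the rule names are not reported here. Gm47518, Gm42910, Lilr4b, Akr7a5, Pcp4l1, Ifit1, Ifit3b, AC113540.1 and Rn7s6 fall outside the rule and were chosen after values were seen. The members and lists were chosen with earlier results of these data known. Alternatives were the fit without the batch, DESeq2 1.42.0, RLE scaling, no low-count filter, other thresholds, other sets of libraries and each library left out.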

Additional observations from a re-analysis of the deposited data

How the results depend on the processing

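The count of called genes was 10 (9 in the same direction in both batches). With the replicate block left out it was 0 (0). With DESeq2 it was 5 (5), with RLE scaling 17 (16), without the low-count filter 35 (29), with the 4 clozapine and risperidone libraries alone 32 (30), with all 18 libraries in 1 fit 0 (0), and at an adjusted p under 0.10 18 (17). With each library left out in turn it ran from 7 to 662, and the count in the same direction in both batches, which needs both drugs in both batches, from 7 to 15 with a vehicle library left out. All 10 genes remained called under RLE scaling, without the filter and in the fit of 4 libraries, and 3 of them under DESeq2. The difference between astrocytes and microglia had 0 calls in every fit of all libraries and 0 to 5 with a library left out. The difference between astrocytes and neurons had 4 calls without the filter, 0 in the other fits of all libraries, and 0 to 235 with a library left out. Of 408 values of 68 named genes under other settings of all libraries, 0 turned their sign. Of 408 with a library left out, 13 did. The ranges were -3.58 to 0.07 for Lilr4b, -0.45 to 0.28 for Aqp4, -1.04 to 0.59 for Cx3cr1, -0.68 to 0.16 for Cldn5, -0.83 to 0.32 for Mbp, -2.50 to 0.13 for Cxcl2, -1.62 to 0.11 for Rimbp3, -0.57 to 1.53 for Accsl and -0.14 to 4.80 for Zfp663. Where a library is left out, the spread of the remaining one is taken from the other groups. With 2 pools per group, a gene that missed the threshold is not shown to be alike. The cause of these changes was not tested.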
